A study of Homo sapiens with 4 samples.

Results

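The nuclear genes whose symbols begin with NDUF encode subunits and assembly factors of respiratory chain complex I. They were examined in MDA-MB231 and Hs578T, human lines of basal-like breast cancer by their labels. Members were all protein-coding genes with an NDUF symbol in the platform annotation and a probe set that names no other gene. Where a gene had more than 1, the probe set of highest average intensity stood for it. This gave 41 genes of 18417 measured in all, of which 34 encode subunits and 7, the NDUFAF genes, assembly factors. All 41 passed the filter on low intensity, under which 15946 genes were tested. RefSeq lists 46 protein-coding NDUF symbols. NDUFS5, NDUFC2 and the readthrough NDUFC2-KCTD14 were named here only on probe sets that list several genes, and the remaining symbols were not analysed here. NDUFV1-DT, a long non-coding RNA beside NDUFV1, was left out. COXFA4 and COXFA4L2, known earlier as NDUFA4 and NDUFA4L2, carry no NDUF symbol in the annotation and are not among the 41.

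There were 4 groups of 1 array each: MDA-MB231 cells expressing FBP1, MDA-MB231 control cells, Hs578T cells expressing FBP1, and Hs578T control cells. FBP1 encodes the gluconeogenic enzyme fructose-1,6-bisphosphatase. The FBP1 cells were stable clones. How many clones were used and what the control cells carried are not given in the sources used here. All cells were grown in serum-containing medium and taken during logarithmic growth. With 1 array per group, a change within a line has no replicate check, and the number of arrays limits the precision of every value.

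Complex I is the large L-shaped enzyme of the inner mitochondrial membrane that oxidises NADH, reduces ubiquinone and pumps protons. Its matrix arm holds the N module, where NADH gives up its electrons, and the Q module, where ubiquinone is reduced. Its membrane arm pumps protons in a proximal and a distal part. Core subunits carry out catalysis, and accessory subunits surround them. Assembly factors help to build the enzyme and are absent from the finished complex. The core subunits of the membrane arm are encoded by the mitochondrial genome. No probe set named to a single gene covered those, so they are not analysed here.

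FBP1 log2 intensity was 13.07 in MDA-MB231 with FBP1 against 9.83 in its control, and 13.35 in Hs578T with FBP1 against 6.35 in its control, which follows the labels. Array medians lay between 7.83 and 7.86 log2. All 6 measured markers of basal-like and mesenchymal-like cells reached the filter level of 6.16 on all arrays, with VIM, CAV1, CD44 and EGFR at 10.63 to 13.92, KRT14 at 8.45 to 9.62 and KRT5 at 6.80 to 6.93. So did 7 of 8 luminal markers, with KRT18 at 12.33 to 12.71, KRT8 at 13.02 to 13.10 in MDA-MB231 and 9.58 to 9.80 in Hs578T, and ESR1 at 6.64 to 6.80. Among the 3 measured leukocyte markers, ITGAM reached it on all arrays (6.69 to 6.91), while PTPRC (4.52 to 4.96) and CD3E (5.69 to 6.12) were below it on all. All 3 endothelial markers reached it, with PECAM1 at 8.48 to 8.51 in MDA-MB231 and 6.81 to 6.97 in Hs578T. The part of other cell types in the NDUF values was not tested. Values are log2 intensities of probe sets. They depend on the probes as well as the transcript, so levels are compared between arrays and not between genes. The mean log2 intensities of the 41 genes ran between 8.41 and 12.64. Fewer cells that express a gene and less of its RNA per cell cannot be told apart.

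The first comparison asked whether complex I transcripts differed between FBP1-expressing and control cells of each line. Differences were small in both. In MDA-MB231, 0 of the 41 genes differed by 1.2-fold (0.263 log2), where 8.52% of all genes tested did. In Hs578T, 2 of 41 did, against 19.2% of all genes tested. The 2 were NDUFS4, above control, and NDUFA2, below it. With the probe sets of each gene averaged, NDUFS4 no longer reached 1.2-fold and the count was 1, and with each array centred on its median NDUFAF1 joined them and it was 3. At 1.5-fold the count was 0 of 41 in each line, against 0.627% of all genes in MDA-MB231 and 3.08% in Hs578T. Shares were also taken at matched brightness. Among the 9357 genes tested between the lowest and highest NDUF mean, a range added with the values in view, 6.47% passed 1.2-fold in MDA-MB231 (3.04% above control and 3.43% below) and 0.513% passed 1.5-fold. In Hs578T, 19.3% of them passed 1.2-fold (9.5% above and 9.76% below) and 2.93% passed 1.5-fold. Of the NDUF genes, 23 of 41 (56.1%) lay within 1.1-fold of control in both lines, against 39.8% of all genes tested and 41.3% of those in that brightness range. These shares are descriptions without a test, since members of a complex are not independent of each other.

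The median change, FBP1 minus control, of the 34 subunit genes was 0.0169 log2 in MDA-MB231 and 0.0087 in Hs578T, where it was −0.0020 once each array was centred on its median. For the 7 assembly factor genes it was 0.0008 in MDA-MB231 and 0.0398 in Hs578T. Over all genes tested the medians were −0.0053 for MDA-MB231 and 0.0213 for Hs578T. The interquartile range of the 41 genes was −0.0457 to 0.0787 in MDA-MB231 and −0.0838 to 0.0996 in Hs578T, inside that of all genes tested (−0.0905 to 0.0836 and −0.103 to 0.139). Changes had the same sign in both lines for 26 of 41 genes (63.4%), 17 of them above control and 9 below, against 51.2% of all genes. Pearson's r between the MDA-MB231 and Hs578T changes was 0.016 over the 41 genes and 0.033 over all genes tested except FBP1. Genes share arrays and are not independent replicates.

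Over both lines together, limma was fitted to all genes with terms for cell line and construct, which leaves 1 residual degree of freedom. It called 0 of 41 NDUF genes at an adjusted p under 0.05, and 0 of 15946 genes overall (0%). At an unadjusted p under 0.05 it gave 0 of 41, against 5.14% of all genes and 4.77% of those in the NDUF brightness range. The smallest unadjusted p among the 41 was 0.134, for NDUFA6, and limma's adjusted p-values ran from 0.947 to 0.998. Standard errors of the mean change lay between 0.07 and 0.13 log2. The 95% limits of the 41 mean changes reached from −0.41, the lower limit of NDUFAF1, to 0.42, the upper limit of NDUFS4. Mean changes up to these limits are compatible with the 4 arrays. FBP1 itself was not called in this fit, so the 0 calls do not show that complex I genes were unaffected.

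**Figure D1:**
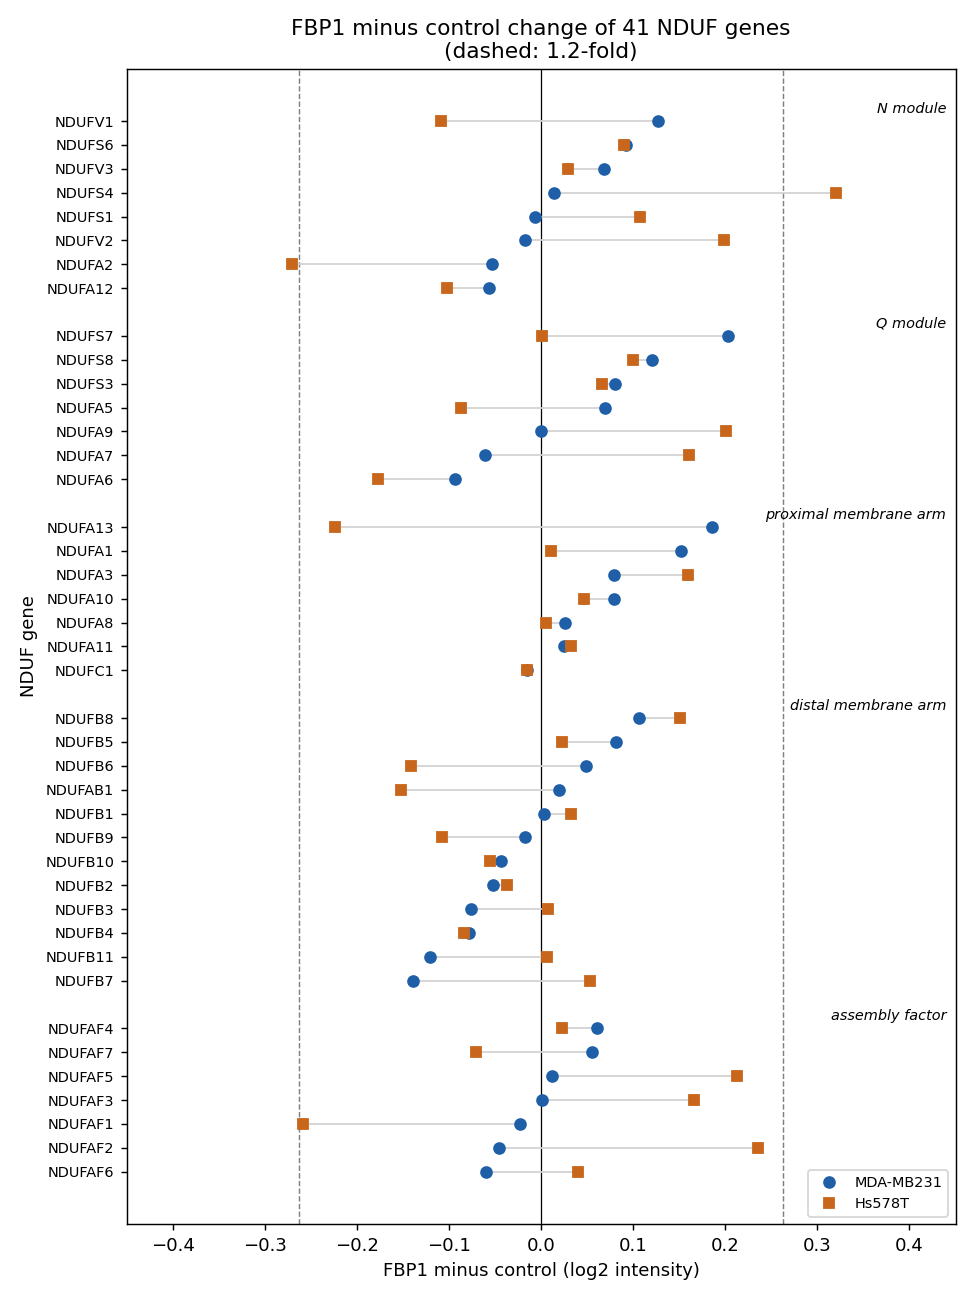
FBP1 minus control change in log2 intensity for 41 NDUF genes, grouped by module (N, Q, proximal and distal membrane arm, assembly factors). Circles are MDA-MB231 and squares Hs578T, 1 pair of arrays each, and dashed lines mark 1.2-fold. NDUFS4 (0.32) and NDUFA2 (−0.27) in Hs578T lie outside the lines.

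The N module holds 8 measured genes. Both genes past 1.2-fold in Hs578T belong to it, 1 above control and 1 below, where 19.2% of all genes tested passed. NDUFS4 encodes an accessory subunit that helps to keep the N module attached, and loss of its function in humans causes Leigh syndrome. Its log2 intensity was 11.08 in MDA-MB231 with FBP1 and 11.07 in its control, and 12.04 in Hs578T with FBP1 and 11.72 in its control. The Hs578T arrays were both above the MDA-MB231 arrays, and only the Hs578T pair differed by over 1.2-fold (1.25-fold, log2 change 0.32, against 0.01 in MDA-MB231). A second NDUFS4 probe set was dim, at 5.00 and 5.23 in MDA-MB231 with FBP1 and its control and 5.54 and 5.39 in Hs578T with FBP1 and its control. NDUFA2, an accessory subunit with a thioredoxin-like fold, was at 11.29 in MDA-MB231 with FBP1 and 11.34 in its control, and at 11.48 in Hs578T with FBP1 and 11.75 in its control. It lay below control in both lines, by 1.04-fold in MDA-MB231 (−0.05) and 1.21-fold in Hs578T (−0.27).

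The core subunits of the N module lay within 1.2-fold of control in both lines. NDUFV1, which binds NADH and FMN, was at 10.81 in MDA-MB231 with FBP1 and 10.68 in its control, and at 10.79 in Hs578T with FBP1 and 10.90 in its control, so the direction differed between the lines (MDA-MB231 0.13, Hs578T −0.11). NDUFV2, an iron-sulfur subunit, differed by −0.02 in MDA-MB231 and 0.20 in Hs578T. Its other probe set gave −0.05 for MDA-MB231 and 0.16 for Hs578T. NDUFS1, the largest subunit and an iron-sulfur protein, differed by −0.01 in MDA-MB231 and 0.11 in Hs578T. The accessory subunit genes NDUFS6 (MDA-MB231 0.09, Hs578T 0.09) and NDUFV3 (MDA-MB231 0.07, Hs578T 0.03) lay above control in both lines, and NDUFA12 (MDA-MB231 −0.06, Hs578T −0.10) below. The module's median was 0.0037 in MDA-MB231, with 4 of 8 genes above control, and 0.0596 in Hs578T, with 5 of 8.

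In the Q module, 7 genes were measured, with medians of 0.0698 in MDA-MB231 and 0.0662 in Hs578T. NDUFS7 and NDUFS8 carry the iron-sulfur clusters nearest to ubiquinone. NDUFS7 was at 9.69 in MDA-MB231 with FBP1 and 9.48 in its control, and at 9.92 on both Hs578T arrays. Its 1.15-fold difference (0.20) was the largest of the 41 genes in MDA-MB231. NDUFS8 was at 11.02 in MDA-MB231 with FBP1 and 10.90 in its control, and at 11.08 in Hs578T with FBP1 and 10.98 in its control. NDUFS8 (MDA-MB231 0.12, Hs578T 0.10) and the core subunit gene NDUFS3 (MDA-MB231 0.08, Hs578T 0.07) thus lay above control by similar amounts in both lines. The accessory subunit gene NDUFA6 lay below control in both (MDA-MB231 −0.09, Hs578T −0.18). The accessory subunit gene NDUFA9 differed by −0.0006 in MDA-MB231 and 0.20 in Hs578T, NDUFA7 by −0.06 in MDA-MB231 and 0.16 in Hs578T, and NDUFA5 by 0.07 in MDA-MB231 and −0.09 in Hs578T.

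Of the 7 measured genes of the proximal membrane arm, 6 lay above control in MDA-MB231 (median 0.0787) and 5 in Hs578T (median 0.0103). NDUFA13, also known as GRIM-19, had the widest gap between the FBP1 changes of the lines. It was at 9.67 in MDA-MB231 with FBP1 and 9.49 in its control, and at 9.31 in Hs578T with FBP1 and 9.53 in its control. The control arrays of the lines lay close together, and FBP1 cells stood above control in MDA-MB231 (0.19) and below it in Hs578T (−0.22). That difference between the changes, 0.41 log2, cannot be tested with 1 array per group. NDUFA1, a small accessory subunit encoded on the X chromosome, differed by 0.15 in MDA-MB231 and 0.01 in Hs578T. NDUFA3 (MDA-MB231 0.08, Hs578T 0.16), NDUFA10 (MDA-MB231 0.08, Hs578T 0.05), NDUFA8 (MDA-MB231 0.0262, Hs578T 0.0050) and NDUFA11 (MDA-MB231 0.03, Hs578T 0.03) lay above control in both lines, and NDUFC1 (MDA-MB231 −0.02, Hs578T −0.02) below.

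The distal membrane arm had 7 of 12 genes below control in MDA-MB231 (median −0.0305) and 6 of 12 in Hs578T (median −0.0158). NDUFB8, whose protein is often used as a readout of assembled complex I, was at 12.24 in MDA-MB231 with FBP1 and 12.13 in its control, and at 11.96 in Hs578T with FBP1 and 11.81 in its control. It was the member of this arm farthest above control in each line (MDA-MB231 0.11, Hs578T 0.15). NDUFB7 (MDA-MB231 −0.14, Hs578T 0.05) and NDUFB11 (MDA-MB231 −0.12, Hs578T 0.01) were farthest below control in MDA-MB231. NDUFAB1, the mitochondrial acyl carrier protein (MDA-MB231 0.02, Hs578T −0.15), and NDUFB6 (MDA-MB231 0.05, Hs578T −0.14) were farthest below in Hs578T. The others were NDUFB5 (MDA-MB231 0.08, Hs578T 0.02), NDUFB1 (MDA-MB231 0.00, Hs578T 0.03), NDUFB3 (MDA-MB231 −0.08, Hs578T 0.01), NDUFB2 (MDA-MB231 −0.05, Hs578T −0.04), NDUFB10 (MDA-MB231 −0.04, Hs578T −0.06), NDUFB9 (MDA-MB231 −0.02, Hs578T −0.11) and NDUFB4 (MDA-MB231 −0.08, Hs578T −0.08). The annotation gave NDUFB4 a pair of probe sets with identical values.

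The changes of the 7 assembly factor genes ran from −0.0594 to 0.0602 log2 in MDA-MB231 and from −0.259 to 0.236 in Hs578T. NDUFAF1, which acts early in assembly of the membrane arm, was at 8.78 in MDA-MB231 with FBP1 and 8.80 in its control, and at 8.92 in Hs578T with FBP1 and 9.18 in its control. Its Hs578T change of −0.26 lay just inside 1.2-fold. NDUFAF2, a paralogue of NDUFA12 that acts late in assembly, was at 8.05 in MDA-MB231 with FBP1 and 8.10 in its control, and at 8.86 in Hs578T with FBP1 and 8.62 in its control. Its 2 probe sets disagreed in MDA-MB231, where the dimmer one stood at 0.16 and the one used at −0.05. Both were above control in Hs578T, by 0.15 for the dimmer one and 0.24 for the one used. NDUFAF5, which modifies the subunit NDUFS7 (MDA-MB231 0.01, Hs578T 0.21), and NDUFAF3, a factor of Q module assembly (MDA-MB231 0.00, Hs578T 0.17), also stood above control in Hs578T. NDUFAF4, its partner in that step, differed by 0.06 in MDA-MB231 and 0.02 in Hs578T. NDUFAF6 differed by −0.06 in MDA-MB231 and 0.04 in Hs578T. NDUFAF7, which encodes a methyltransferase, differed by 0.06 in MDA-MB231 and −0.07 in Hs578T.

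**Figure D2:**
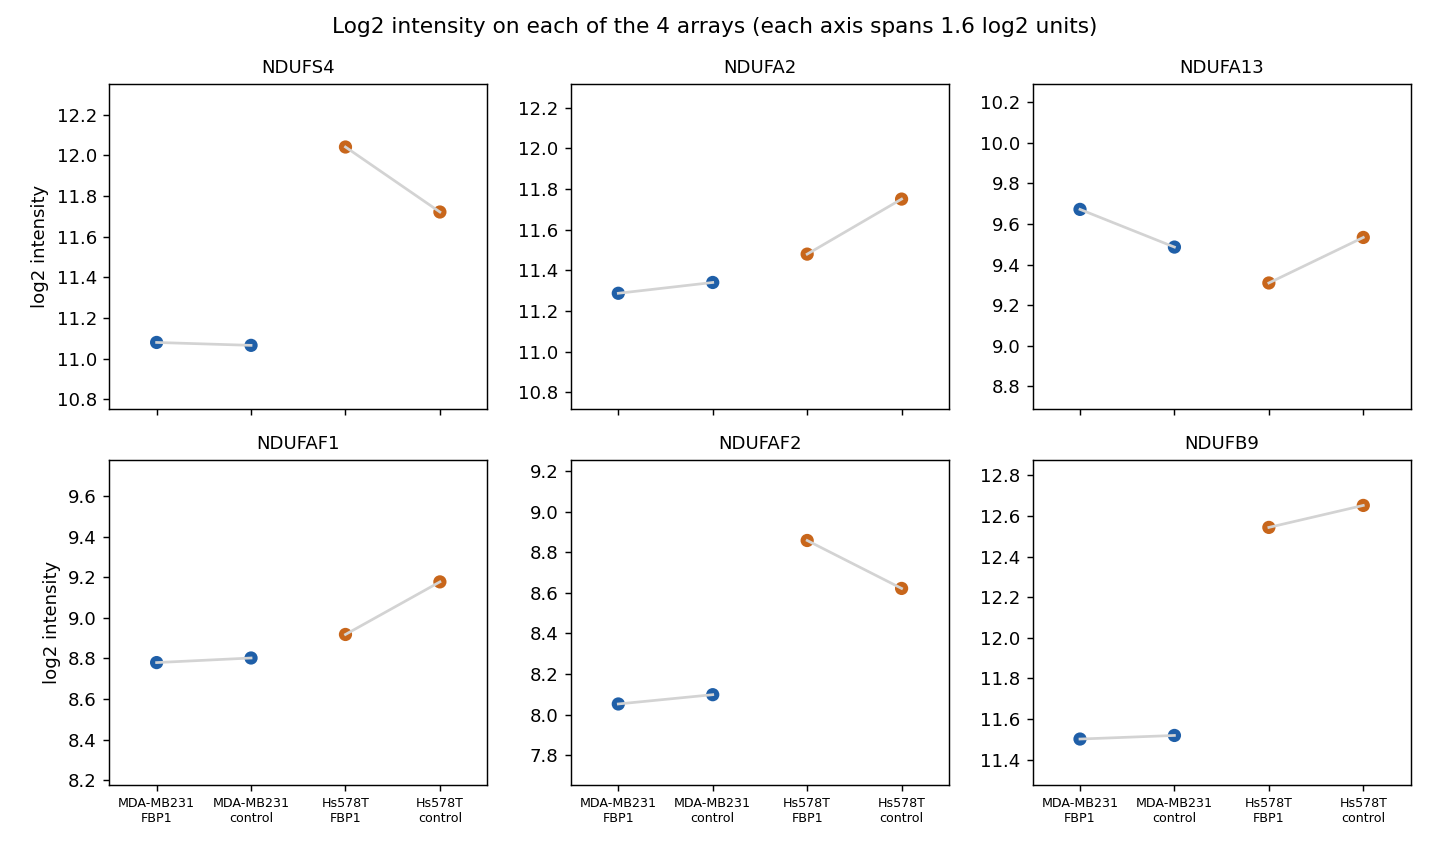
Log2 intensity of 6 NDUF genes on each of the 4 arrays, with the FBP1 array left of the control array of each line. Grey lines join the arrays of a line. NDUFS4 and NDUFAF2 were higher on both Hs578T arrays than on both MDA-MB231 arrays, the FBP1 minus control values of NDUFA13 had opposite signs (MDA-MB231 0.19, Hs578T −0.22), and the NDUFB9 line difference was −1.09.

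The second comparison was between the lines. The same limma fit called 17 of the 41 NDUF genes (41.5%) between MDA-MB231 and Hs578T at an adjusted p under 0.05, against 40.8% of all genes tested and 48.8% of those in the NDUF brightness range. The members' share is near that background at this threshold. At an adjusted p under 0.01, limma called 5 of 41 NDUF genes against 4065 of 15946 genes, a smaller share. By direction, 4 of 41 (9.76%) were higher in MDA-MB231, against 21.8% of all genes and 25.8% of the brightness range. In Hs578T, 13 (31.7%) were higher, against 19% and 23.1%. The median line difference, MDA-MB231 minus Hs578T, was −0.0896 log2 over the 41 genes and −0.0173 over all genes tested. Both MDA-MB231 arrays lay on the same side of both Hs578T arrays for 35 of 41 genes (85.4%), as for 73% of all genes. In 30 of 41 genes (73.2%), the line difference was larger in size than the FBP1 change in either line, against 63.9% of all genes tested and 71% of the brightness range. The FBP1 and the control array of a line serve as its replicates here, after the FBP1 change shared by both lines is taken out. The p-values thus rest on how far a gene's FBP1 change differed between the lines, and on variance that limma borrows from all genes tested. Nothing in the labels says how separate these cultures were.

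NDUFB9, an accessory subunit of the distal membrane arm, had the largest line difference of the 41 genes. Its log2 intensity was 11.50 and 11.52 in MDA-MB231 with FBP1 and control, against 12.54 and 12.65 in Hs578T with FBP1 and control. It was 2.12-fold lower in MDA-MB231 (−1.09, SE 0.08, limma adjusted p = 0.000181), and the lines did not overlap. NDUFS4 was 1.75-fold lower in MDA-MB231 (−0.81, SE 0.10, limma adjusted p = 0.00177), by −0.96 on the FBP1 arrays and −0.66 on the control arrays. NDUFAF2 was 1.58-fold lower (−0.66, SE 0.12, limma adjusted p = 0.0058). NDUFA6 was at 11.76 and 11.85 in MDA-MB231 with FBP1 and control, against 12.18 and 12.35 in Hs578T with FBP1 and control, and was 1.37-fold lower in MDA-MB231 (limma adjusted p = 0.00522).

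The other 9 called genes with lower intensity in MDA-MB231 differed by 1.23-fold to 1.32-fold. They were NDUFB5 (−0.40), NDUFAF7 (−0.38), NDUFS1 (−0.38), NDUFAF5 (−0.35), NDUFS7 (−0.34), NDUFA5 (−0.34), NDUFB4 (−0.32), NDUFV3 (−0.31) and NDUFA2 (−0.30). By role, 4 of the 13 belong to the N module, 3 to the Q module, 3 to the distal membrane arm and 3 are assembly factors. The limma adjusted p-values of NDUFAF5, NDUFA5, NDUFA2 and NDUFS7 lay between 0.0448 and 0.0484, close to the threshold. NDUFA12, NDUFA2, NDUFA5, NDUFB8, NDUFS3 and NDUFS7 lost their call in at least 1 alternative fit, and the other 11 kept it in each. RefSeq lists a pseudogene named after 20 of the 41 genes, NDUFB9 and NDUFAF2 among them but not NDUFS4, and what such copies add to a probe set's signal was not tested. Higher in MDA-MB231 were NDUFA8 (0.47), NDUFB8 (0.30), NDUFA12 (0.27) and the core subunit gene NDUFS3 (0.25). NDUFA8, an accessory subunit of the membrane arm, was at 11.34 and 11.31 in MDA-MB231 with FBP1 and control, against 10.85 on both Hs578T arrays (1.39-fold, SE 0.09, limma adjusted p = 0.00757).

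**Figure D3:**
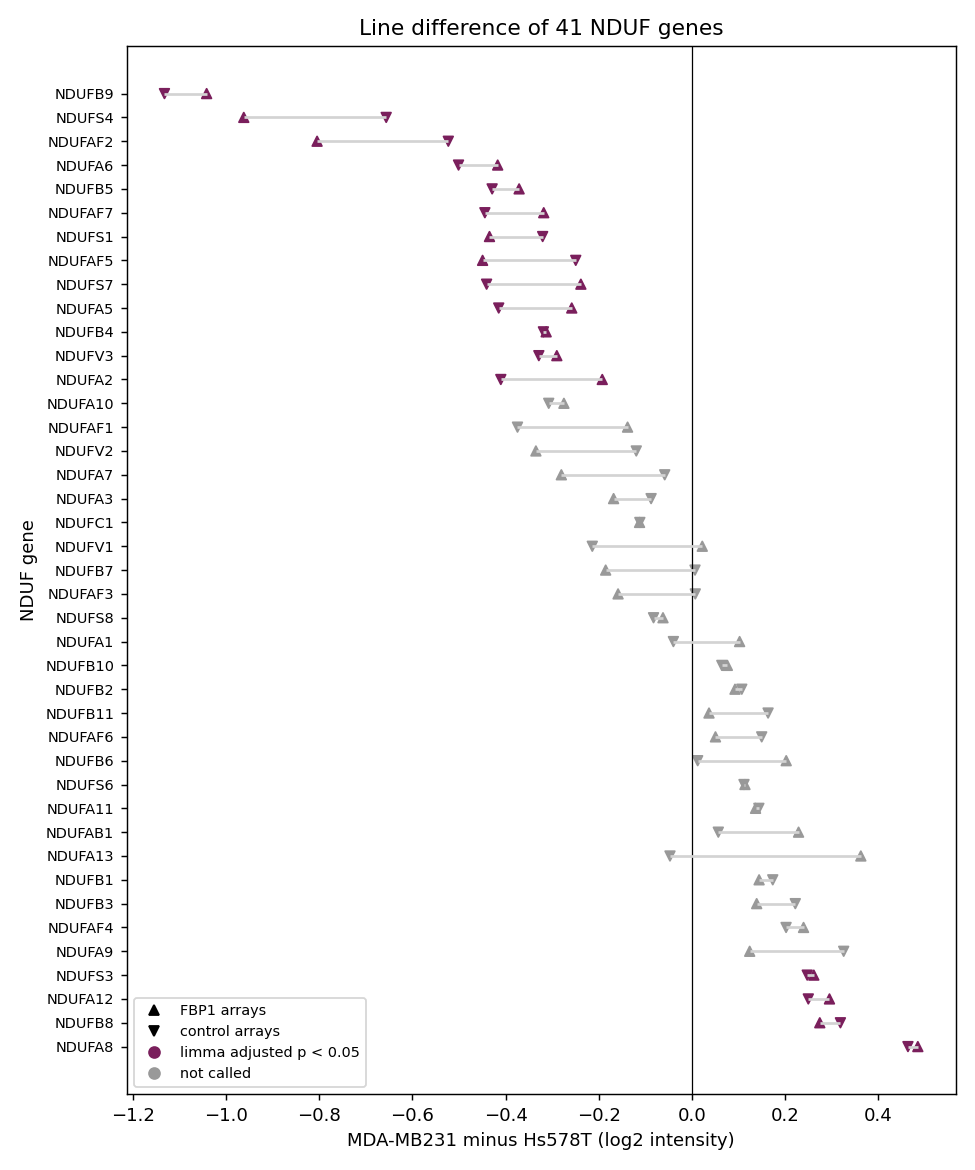
MDA-MB231 minus Hs578T difference in log2 intensity of the 41 NDUF genes, on the FBP1 arrays (upward triangles) and on the control arrays (downward triangles). Dark points mark the 17 genes called by limma, 13 of them below 0 and 4 above. NDUFB9, NDUFS4 and NDUFAF2 stand lowest and NDUFA8 highest.

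NDUFS4 and NDUFAF2 both lie on chromosome 5, which raised the question of how neighbouring genes differed between the lines. RefSeq gene order was used, with the 10 nearest tested protein-coding genes on each side, and no test was made. Of the 20 neighbours of NDUFS4, 19 were lower in MDA-MB231, with a median of −0.864 log2, close to its own −0.81. Of the 20 neighbours of NDUFAF2, 17 were lower, with a median of −0.662 against its own −0.66. The neighbourhoods shared 0 genes. Also on chromosome 5, NDUFA2 was at −0.30 with a neighbours' median of −0.286, and NDUFS6 at 0.11 with a median of 0.0168. On chromosome 3, the neighbours of NDUFB4 (18 of 20 lower, median −0.377) and NDUFB5 (17 of 20 lower, median −0.396) also stood near their NDUF gene (−0.32 and −0.40). NDUFAF3, on chromosome 3 as well, went the other way. It was at −0.08, with 18 of 20 neighbours above 0 and a median of 0.446.

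NDUFB9 differed from NDUFS4, NDUFAF2, NDUFB4 and NDUFB5. The median of its 20 neighbours on chromosome 8 was −0.0665, with 12 below 0, although the 3 genes next to it on one side, TATDN1 (−1.37), RNF139 (−1.46) and TYW2 (−2.20), were lower in MDA-MB231, as were SQLE (−1.95), WASHC5 (−1.62) and NSMCE2 (−2.28) on the other side, beyond MTSS1 (−0.17) and ZNF572 (−0.30). The neighbours of NDUFA6 (median −0.114) and NDUFA8 (median 0.035) were closer to 0 than the genes themselves. Over the 17 called NDUF genes, 15 had neighbours whose median had the same sign, as did 72.8% of the 6210 called protein-coding genes of the whole table. The exceptions were NDUFS1 (−0.38, neighbours' median 0.177) and NDUFS7 (−0.34, neighbours' median 0.0452). Copy number was not measured here.

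**Figure D4:**
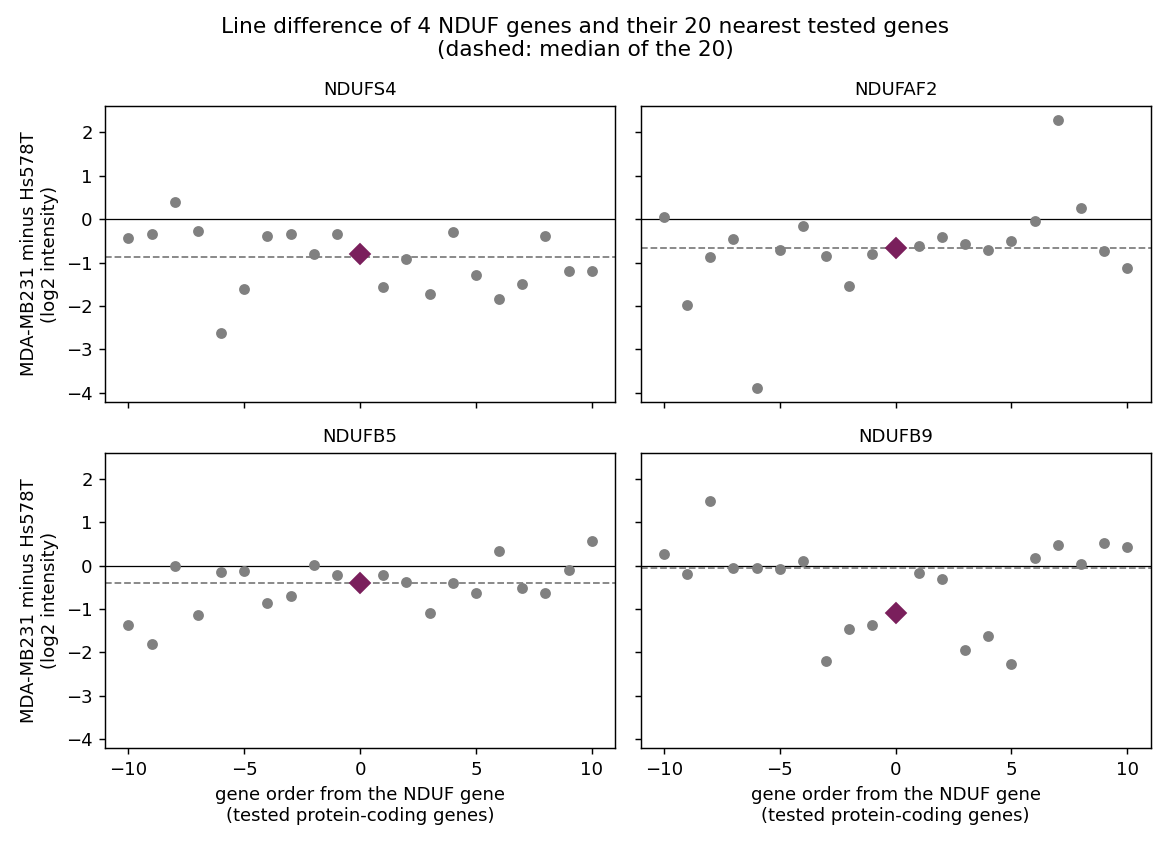
MDA-MB231 minus Hs578T difference in log2 intensity of NDUFS4, NDUFAF2, NDUFB5 and NDUFB9 (diamonds) and of the 10 nearest tested protein-coding genes on each side in RefSeq order (circles). Dashed lines are medians of the 20 neighbours. The medians for NDUFS4 (−0.864), NDUFAF2 (−0.662) and NDUFB5 (−0.396) lie near the gene's own value, and that for NDUFB9 (−0.0665) does not.

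The upstream sequences of NDUFS4 and NDUFAF2 are shown because these genes had the largest changes above control in Hs578T and, after NDUFB9, the largest line differences. Each is the 250 bases before the gene's start in RefSeq, build GRCh38.p14, plus strand, at chr5:53560389-53560638 and chr5:60944955-60945204. None of the 3 motifs described next occurs in them, so no base is in capitals.
NDUFS4: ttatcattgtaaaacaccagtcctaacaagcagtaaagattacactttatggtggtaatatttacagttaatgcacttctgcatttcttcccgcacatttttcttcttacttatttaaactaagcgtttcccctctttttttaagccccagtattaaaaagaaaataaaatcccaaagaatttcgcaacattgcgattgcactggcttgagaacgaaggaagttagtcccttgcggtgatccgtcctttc
NDUFAF2: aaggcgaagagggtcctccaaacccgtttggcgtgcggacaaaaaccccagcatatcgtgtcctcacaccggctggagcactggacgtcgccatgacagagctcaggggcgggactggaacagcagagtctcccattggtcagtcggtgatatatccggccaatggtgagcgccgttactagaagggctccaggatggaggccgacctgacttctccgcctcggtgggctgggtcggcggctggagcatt

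Promoters of 38 members matched by gene ID in the RefSeq table, in windows from 250 bases before to 50 after the start. They were searched on both strands for letters that are bound by nuclear factors known for controlling respiratory genes. NDUFB5, NDUFB9 and NDUFAF6 had no such window and were not searched. The letters GCGCA, any base and then GCGC, a form of the site of nuclear respiratory factor 1 (the transcription factor NRF1), were in 7 of 38 windows (18.4%), against 8.58% of all 15843 protein-coding promoters. The letters CCGGAAG, as bound by ETS factors such as GABPA, were in 6 of 38 (15.8%), against 14.2%. TGACGTCA, the cyclic AMP response element, was in 2 of 38 (5.26%), against 2.59%. Median GC content was 60.8% in the members' windows and 62.7% in all. A match describes the letters and is not evidence of binding.

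The 7 stretches with the NRF1 letters are shown to set the changes of these genes side by side. Capitals mark the match, on either strand, and up to 20 bases on each side are given, with 1 match per gene where a window held several. They lie at chr19:5903859-5903908 (NDUFA11, minus strand), chr12:95003784-95003833 (NDUFA12, minus strand), chr19:54102665-54102714 (NDUFA3, plus strand), chr9:122159760-122159803 (NDUFA8, minus strand), chr12:4649014-4649063 (NDUFA9, plus strand), chr20:13785004-13785047 (NDUFAF5, plus strand), chr3:120596157-120596206 (NDUFB4, plus strand), in GRCh38.p14, and for NDUFA8 and NDUFAF5 the match spans the start of the gene.
NDUFA11: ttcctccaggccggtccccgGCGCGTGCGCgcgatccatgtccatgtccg
NDUFA12: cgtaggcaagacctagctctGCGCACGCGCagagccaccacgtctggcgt
NDUFA3: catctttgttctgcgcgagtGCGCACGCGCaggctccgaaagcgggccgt
NDUFA8: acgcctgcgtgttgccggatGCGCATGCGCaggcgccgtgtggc
NDUFA9: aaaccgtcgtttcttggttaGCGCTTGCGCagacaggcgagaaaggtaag
NDUFAF5: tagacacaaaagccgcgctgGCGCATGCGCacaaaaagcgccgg
NDUFB4: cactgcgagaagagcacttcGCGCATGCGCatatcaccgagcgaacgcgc

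The genes that hold these letters had changes of either sign. In Hs578T their FBP1 minus control changes ran between −0.10 for NDUFA12 and 0.21 for NDUFAF5, and in MDA-MB231 between −0.08 for NDUFB4 and 0.08 for NDUFA3. Between the lines, NDUFA8 and NDUFA12 were called higher in MDA-MB231, and NDUFB4 and NDUFAF5 higher in Hs578T.

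The rest of the respiratory chain and its regulators were set beside the NDUF genes. Of 13 complex I assembly genes without an NDUF symbol, 0 differed by 1.2-fold in either line. Their medians were 0.0233 in MDA-MB231 and 0.0904 in Hs578T, with 8 above control in MDA-MB231 and 11 in Hs578T. Between the lines, limma called 8 of the 13, with 2 higher in MDA-MB231 and 6 in Hs578T, where 40.8% of all genes were called. Among the 8, TMEM126B (−0.88) and DMAC1 (−0.77) were lower in MDA-MB231 than in Hs578T, and the import factor gene CHCHD4 was higher (1.02). Their limma adjusted p-values were 0.00115, 0.00114 and 0.000862. Complexes II (6 genes), III (14), IV (26) and ATP synthase (18) had medians between −0.0192 and 0.0432 in MDA-MB231 and between −0.0101 and 0.0155 in Hs578T. In these lists, 2 genes were at least 1.2-fold above control in MDA-MB231 (UQCC2 and UQCRH) and 2 at least 1.2-fold below (COX7B and COX20, the second at −0.27), where 4.36% and 4.16% of all genes were. In Hs578T, COX18 (0.30) was above by that much and UQCRH below, where 9.86% and 9.34% of all genes were.

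UQCRH, the hinge subunit gene of complex III, was at 8.47 in MDA-MB231 with FBP1 and 8.20 in its control, and at 8.11 in Hs578T with FBP1 and 8.43 in its control, above control by 1.21-fold in MDA-MB231 and below it by 1.25-fold in Hs578T. The complex III assembly gene UQCC2 (MDA-MB231 0.31, Hs578T 0.22) was above control and the complex IV subunit gene COX7B (MDA-MB231 −0.35, Hs578T −0.26) below control in both lines. COXFA4 differed by 0.09 in MDA-MB231 and −0.05 in Hs578T, and COXFA4L2 by 0.10 in MDA-MB231 and −0.12 in Hs578T.

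The list of mitochondrial transcription regulators held 12 genes, with medians of −0.0253 in MDA-MB231 and 0.0142 in Hs578T. TFB1M, a methyltransferase of mitochondrial ribosomal RNA, was at 8.67 in MDA-MB231 with FBP1 and 8.50 in its control, and at 8.79 in Hs578T with FBP1 and 8.38 in its control. It was above control by 1.13-fold in MDA-MB231 and 1.33-fold in Hs578T. GABPA, an ETS factor known to bind promoters of respiratory genes, was at 9.15 in MDA-MB231 with FBP1 and 9.44 in its control, and at 9.53 in Hs578T with FBP1 and 9.89 in its control. It was below control by 1.23-fold in MDA-MB231 and 1.29-fold in Hs578T. The coactivator gene PPRC1 differed by 0.03 in MDA-MB231 and 0.39 in Hs578T. TFAM, which packages and transcribes mitochondrial DNA (MDA-MB231 −0.06, Hs578T 0.15), TFB2M (MDA-MB231 −0.06, Hs578T −0.02) and the mitochondrial RNA polymerase gene POLRMT (MDA-MB231 0.17, Hs578T −0.04) lay within 1.2-fold. None of these was called by limma for FBP1 against control, with an adjusted p of 0.943 for TFB1M and GABPA. Hypoxia-inducible genes had medians of −0.161 in MDA-MB231 and −0.157 in Hs578T over 11 genes. DDIT4 (MDA-MB231 −0.20, Hs578T −1.22), ANGPTL4 (MDA-MB231 −0.20, Hs578T −0.82), NDRG1 (MDA-MB231 −0.045, Hs578T −0.69) and KDM3A (MDA-MB231 −0.12, Hs578T −0.66) were past 1.5-fold below control in Hs578T, again with no gene called. Of all genes tested, 3.08% were past 1.5-fold in Hs578T in either direction. Of the 11 hypoxia-inducible genes, 10 lay below control in MDA-MB231 and 9 in Hs578T. Of all 15946 genes tested, 8257 lay below control in MDA-MB231 and 7186 in Hs578T. ADM lay above control in both (MDA-MB231 0.26, Hs578T 0.18), and the glucose transporter gene SLC2A1 lay above it in Hs578T (MDA-MB231 −0.02, Hs578T 0.31). Their part in the NDUF values was not tested.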

How the data were processed

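Total RNA of 4 cultures was hybridised to Affymetrix arrays, 1 per line and construct, and samples were grouped by the labels' source names. The table deposited by the authors holds log2 intensities of 33297 probe sets, between 2.40 and 14.81. The submitters' processing notes name Affymetrix Expression Console (1.1.2800.28061). How the arrays were normalized is not stated there, and scaling between arrays hides a change in total RNA. Names came from the platform annotation, in which 19460 probe sets list 1 gene, 1754 several and 12083 none. Genes averaging under log2 6.16, the lower quartile of all probe sets' averages, were not tested. limma 3.58.1 in R 4.3.3 was fitted to 15946 genes with cell line (which pairs the arrays) and construct, an intensity trend, 1 residual and 5.04 prior degrees of freedom, and Benjamini-Hochberg adjustment at 0.05. In artificial data with known changes in 200 of 15946 genes per comparison, the fit recovered 158 for FBP1 and 154 for cell line. Of its calls there, 9.71% for FBP1 and 8.88% for cell line were false, both above the nominal adjusted threshold. The planted changes were all larger than any NDUF change with FBP1, and those for FBP1 were the same in both lines. Noise was drawn from the fit's own variance prior. That recovery was not shown to carry over to the real arrays, where FBP1 itself was not called and 40.8% of genes were called between the lines. Whether the fit finds changes as small as those of the NDUF genes with FBP1 was not tested. Tables and figures used Python 3.11.15.

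Members, lists and tests were chosen with earlier results of these data known. Genes named were the core subunits, all NDUFAF genes, the 10 largest changes per line, the 8 largest called line differences each way, and pathway genes past 1.5-fold. Other members, and pathway genes that had not passed 1.5-fold, were named after their values were seen. Alternatives covered the filter, quantile normalization, centring, probe set averaging, the variance trend, the block and the threshold. The planned naming of the 3 highest and 3 lowest members by level was dropped, since probes differ between genes.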

Additional observations from a re-analysis of the deposited data

Results flagged for a closer look

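NDUFA13 stood out because its change had opposite signs in the lines. FBP1 minus control was 0.19 in MDA-MB231 and −0.22 in Hs578T, a difference of 0.41 log2. The difference was not tested, since each line and construct has 1 array.

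A probe set that lists both NDUFC2-KCTD14 and KCTD14, and entered no gene result, was higher with FBP1 in Hs578T. Its log2 intensity was 10.98 with FBP1 and 10.49 in the control (0.50), against 11.01 with FBP1 and 11.21 in the control of MDA-MB231 (−0.19). The probe set that lists NDUFC2-KCTD14 and NDUFC2 had FBP1 minus control changes of 0.06 in MDA-MB231 and −0.08 in Hs578T.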

How the results depend on the processing

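Quantile normalization, median centring and either other filter kept each count of NDUF genes within 1.5 times its reported value and moved each NDUF median by less than 0.05 log2. Centring gave 3 NDUF genes past 1.2-fold in Hs578T and turned the subunit median there to −0.0020. Averaging a gene's probe sets left 1 NDUF gene rather than 2 at least 1.2-fold from control in Hs578T, because the dim second probe set of NDUFS4 lowers its change. At an adjusted p under 0.01, limma called 4065 of 15946 genes and 5 of 41 NDUF genes between the lines. The share was smaller among the NDUF genes. Of the 5, 1 was higher in MDA-MB231 and 4 in Hs578T. Without an intensity trend, 1 NDUF gene was called higher in MDA-MB231. RefSeq lists a pseudogene of 20 members (48.8%), which probes can bind as well. Without those members, a choice added with the values in view, 9 NDUF genes were called between the lines, 1 higher in MDA-MB231 and 8 in Hs578T. Fewer genes were left, and the share of them that was called was close to the 41.5% of all 41. The NDUFAF median in Hs578T was then 0.103. Of the 17 called genes, 11 remained called under each alternative fit at 0.05. NDUFA12, NDUFA2, NDUFA5, NDUFB8, NDUFS3 and NDUFS7 were lost in at least 1, and NDUFA10 and NDUFAF4 were gained in at least 1. Dropping the cell line, which serves as the pairing block, left 0 genes and 0 NDUF genes called for FBP1, as with the block. Leaving out a replicate was not possible with 1 array per group.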
